A study of Mus musculus with 12 samples.

Results

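The response to transfected double-stranded RNA was measured in embryonic mouse fibroblasts (MEFs, the connective tissue cells that grow out of minced embryos) of the genotype GADD34ΔC/ΔC, written ΔC here. It rests on 6 of the 12 single-colour arrays of the study, chosen by their labels: 3 of untreated ΔC cells and 3 of ΔC cells lipofected for 6 h with 2.5 µg/ml of high molecular weight poly(I:C), which mimics viral double-stranded RNA. The other 6 arrays hold wild-type (WT) MEFs, 3 untreated and 3 given the same poly(I:C) treatment, and enter here to estimate the spread and to ask where the ΔC response differs. All 4 groups grew in the same medium with serum and beta-mercaptoethanol, the labels name no group given lipid alone, and neither the mouse strain nor the number of embryos behind each genotype is given in the sources used here. The study describes its replicates as independent experiments, and the arrays numbered 1, 2 and 3 in each group are called experiments 1, 2 and 3 here, with treated standing for poly(I:C) in the name of an array (ΔC treated 1). Values are normalised signals: the log2 of the processed intensity minus the 75th percentile of its array, so that 0 marks that percentile. A gene rose or fell where limma gave an adjusted p under 0.05 (two-sided, Benjamini-Hochberg over all 15445 genes tested).

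Cytosolic double-stranded RNA is bound by the helicases RIG-I and MDA5, which signal through the mitochondrial adaptor MAVS to the transcription factors IRF3 and NF-kB. These switch on interferon beta and inflammatory genes, and the secreted interferon acts through its receptor and the JAK-STAT pathway to switch on a large set of antiviral genes. Double-stranded RNA also activates the kinase PKR, which phosphorylates the translation factor eIF2α. GADD34, the product of Ppp1r15a, is the stress-inducible subunit that brings protein phosphatase 1 to eIF2α and so lets translation resume.

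The ΔC arrays were alike in detection, saturation and correlation over all genes. These measures do not show how far the arrays differed in the response, which is given below. Between 61.4 and 67.3% of probes were well above background on each of them, no spot was saturated, and array signals correlated across genes (which are not independent replicates) at r of 0.981 to 0.995 among untreated arrays, 0.98 to 0.991 among treated arrays and 0.97 to 0.99 between the groups. The scanner file of ΔC treated 1 did not match its column in the authors' deposited table (r = 0.949, against 0.979 with the column of ΔC treated 2), so every value here comes from the scanner files. Of 12 fibroblast markers, 11 were well above background on all 6 ΔC arrays, and the log2 of their summed signal spanned 9.51 to 10.09 untreated and 9.47 to 10.10 after poly(I:C). Of 14 leukocyte markers with a probe, 8 were well above background on all 6 arrays and 2, Lyz2 and Spi1, on none, and the log2 of their summed signal spanned 3.84 to 4.21 untreated and 4.00 to 4.13 treated. Among 9 endothelial markers 4, Cdh5, Tek, Tie1 and Emcn, were well above background on no ΔC array. Another 4, Pecam1, Kdr, Vwf and Cldn5, were so on all 6, with Kdr at a mean of 3.75 untreated and 3.89 treated. Of 9 epithelial and keratinocyte markers 8 were well above background on all 6 arrays. For muscle and neural markers it was 4 of 11, with 2 on none. While 1.82% of all genes tested rose and 0.0194% fell, 0 of the marker genes did (1 at an unadjusted p under 0.05 in limma). That was the leukocyte gene Aif1, which passed with the replicate block (adjusted p = 0.00467) and without ΔC treated 3 or WT untreated 3 (0.0243 to 0.0454), and the endothelial gene Esam passed when scan day was the block (0.0257).

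Ppp1r15a, the targeted gene, read -7.22, -8.30 and -5.75 on ΔC untreated arrays 1 to 3 and -4.12, -8.14 and -7.20 on ΔC poly(I:C) arrays 1 to 3. It was well above background on none of the former and on 1 of the latter, whereas all 6 WT arrays were well above background at 2.62 to 5.83. The labels locate neither the deletion nor the probe against it, so the signal parts the genotypes and does not say what the ΔC transcript holds.

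Poly(I:C) raised 281 genes in ΔC cells, 1.82% of those tested, and lowered 3, or 0.0194%. At an unadjusted p under 0.05 these were 1047 and 635 genes. Of the 281, 257 rose by 2-fold or more, 164 by 4-fold, 93 by 8-fold and 37 by 16-fold. The largest rises were in interferon, chemokine and cytokine genes and in antiviral genes induced by interferon. For 206 of them the probe was well above background on all 3 untreated arrays, and for 55 on none, where the rise is given as a lower bound ("at least"), the mean treated signal over the lowest signal that is well above background on each untreated array. The adjusted p beside a bound is that of the fitted change, which rests partly on background readings. Genes dim in both untreated groups entered the test only through treated arrays, where they are high. All 281 had treated arrays above every untreated array, as did 8.79% of all genes tested, while 8.91% lay wholly below. The median change over all genes was -0.05 on the log2 scale. When slide was the block 84 genes rose, 69 of them among the 281, and when scan day was the block 144 rose, 124 of them among the 281. Leaving out ΔC untreated 1, ΔC untreated 2, ΔC treated 1 or ΔC treated 2 left 162, 154, 160 and 159 rises, and leaving out all 4 arrays numbered 3 gave 1007 rises and 1022 falls.

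**Figure D1:**
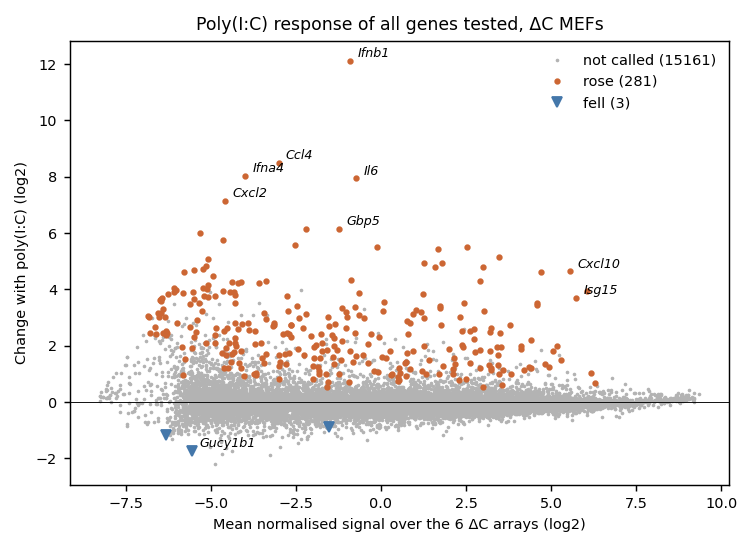
Change with poly(I:C) in ΔC MEFs (log2, vertical axis) against the mean normalised signal over the 6 ΔC arrays (log2, horizontal axis), 1 point a gene for all 15445 genes tested. The 281 genes that rose (orange) reach 12.11 for Ifnb1, and the 3 that fell (blue triangles) lie between -0.89 and -1.72.

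Promoters of 6 genes that rose are shown because they stand for the branches of the response: Ifnb1 and Cxcl10, Ifit1 and Isg15 among the antiviral effectors, and the neutrophil chemokine genes Cxcl1 and Cxcl2. Each sequence runs from 250 bases before to 50 after the start of the gene (RefSeq, GRCm38.p6) on the gene's own strand. Capitals mark matches, on either strand, to GAAANNGAAA, the core of the interferon-stimulated response element (ISRE), or to GGGNNNTTCC, an NF-kB motif.
Ifnb1 (chr4:88522745-88523044, minus strand): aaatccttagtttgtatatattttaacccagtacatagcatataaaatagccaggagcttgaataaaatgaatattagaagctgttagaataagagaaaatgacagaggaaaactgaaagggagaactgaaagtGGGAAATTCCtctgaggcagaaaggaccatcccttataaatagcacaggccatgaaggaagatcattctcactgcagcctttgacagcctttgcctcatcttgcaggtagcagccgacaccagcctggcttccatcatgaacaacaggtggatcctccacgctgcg
Cxcl10 (chr5:92348840-92349139, minus strand): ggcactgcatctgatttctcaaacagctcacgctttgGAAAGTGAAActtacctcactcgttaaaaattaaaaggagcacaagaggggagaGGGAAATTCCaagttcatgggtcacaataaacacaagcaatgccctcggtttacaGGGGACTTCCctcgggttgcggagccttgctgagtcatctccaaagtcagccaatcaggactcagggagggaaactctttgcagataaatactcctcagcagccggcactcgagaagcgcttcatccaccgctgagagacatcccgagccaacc
Ifit1 (chr19:34640639-34640938, plus strand): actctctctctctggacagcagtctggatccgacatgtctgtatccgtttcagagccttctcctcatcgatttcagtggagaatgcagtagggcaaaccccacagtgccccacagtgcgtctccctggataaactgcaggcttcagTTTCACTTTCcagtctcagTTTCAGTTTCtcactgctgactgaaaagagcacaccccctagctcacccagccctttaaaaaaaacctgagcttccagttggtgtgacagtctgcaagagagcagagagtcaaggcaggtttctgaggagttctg
Isg15 (chr4:156200769-156201068, minus strand): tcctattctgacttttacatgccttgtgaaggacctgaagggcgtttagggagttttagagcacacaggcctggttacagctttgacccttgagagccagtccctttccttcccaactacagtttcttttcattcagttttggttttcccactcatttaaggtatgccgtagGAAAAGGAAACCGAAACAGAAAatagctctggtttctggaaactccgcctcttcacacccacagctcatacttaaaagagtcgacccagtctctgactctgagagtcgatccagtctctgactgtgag
Cxcl1 (chr5:90890995-90891294, plus strand): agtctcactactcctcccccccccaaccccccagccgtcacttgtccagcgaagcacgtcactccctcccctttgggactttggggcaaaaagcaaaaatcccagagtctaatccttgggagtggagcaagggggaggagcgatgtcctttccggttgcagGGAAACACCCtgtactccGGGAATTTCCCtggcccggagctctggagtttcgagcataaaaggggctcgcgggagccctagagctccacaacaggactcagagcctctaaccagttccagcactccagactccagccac
Cxcl2 (chr5:90903649-90903948, plus strand): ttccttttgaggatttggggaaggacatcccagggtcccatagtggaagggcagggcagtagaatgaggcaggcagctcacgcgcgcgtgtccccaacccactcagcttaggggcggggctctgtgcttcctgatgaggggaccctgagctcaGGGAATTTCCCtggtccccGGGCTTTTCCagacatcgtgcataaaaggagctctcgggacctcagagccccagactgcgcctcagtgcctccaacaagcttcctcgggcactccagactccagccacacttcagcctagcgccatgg
Ifnb1 held an NF-kB match at 116 to 107 bases before its start, and Cxcl10 an ISRE match at 213 to 204 and NF-kB matches at 159 to 150 and 104 to 95. Ifit1 held ISRE matches at 104 to 95 and 85 to 76, and Isg15 had 3 that overlap one another between 78 and 57 bases before the start. Cxcl1 had NF-kB matches at 89 to 80 and, on both strands in overlap, at 71 to 61, and Cxcl2 likewise at 97 to 87 and at 78 to 69. RefSeq promoters were found for 226 of the 281 genes that rose. Of these, 35 (15.5%) held an ISRE match and 29 (12.8%) an NF-kB match, against 3.71% and 7.23% of the 12250 tested genes with a promoter and 3.99% and 6.31% of all 27025 genes with one. Of 132 genes that rose by 4-fold or more, 33 (25.0%) held an ISRE match and 18 (13.6%) an NF-kB match. These shares are descriptions of the windows, and no test was made on them.

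The largest fitted change of all was that of Ifnb1, the gene of interferon beta. Of 13 interferon genes tested, 5 rose in ΔC cells and none fell, with a median change of 2.24. Ifnb1 read -7.54, -8.24 and -5.10 in untreated cells and 5.18, 4.99 and 5.28 in treated cells of experiments 1 to 3. The treated arrays lay within 0.29 of each other while the untreated ones spread over 3.14, only 1 of them well above background. The fitted change was 12.11 ± 0.67 on the log2 scale (SE, adjusted p = 1.28e-05), so its size rests partly on background readings. Ifna4, an early interferon alpha gene, was not well above background on any untreated array and at 0.16, -0.28 and 0.21 on the treated ones, at least 69.8-fold higher (adjusted p = 9.76e-05). Ifna16 rose by 4.21 ± 0.62 (adjusted p = 0.00607), Ifna12 by 3.76 ± 0.60 (adjusted p = 0.00879) and Ifna13 by 3.42 ± 0.57 (adjusted p = 0.0125). The interferon alpha genes are near-copies of each other, and how far their probes tell them apart was not tested. The calls on Ifna16 and Ifna12 were lost when slide (adjusted p = 0.268 and 0.235) or scan day (0.107 and 0.0885) was the block, and that on Ifna12 also with normexp background correction (0.0532) and with the mean of its probes (0.0772). Without WT treated 3, whose spread enters the test, 10 of the 13 rose.

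**Figure D2:**
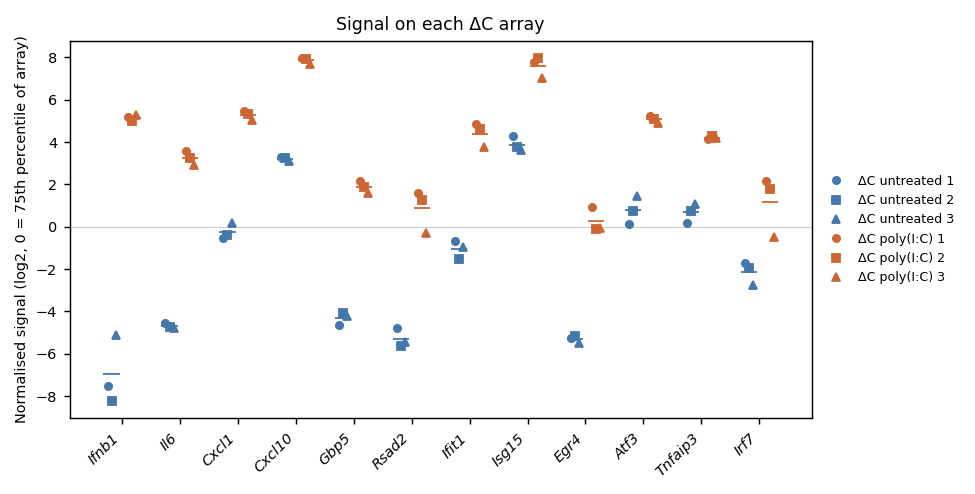
Normalised signal (log2, vertical axis) of 12 genes on each of the 6 ΔC arrays, with a bar at each group mean; circles, squares and triangles are experiments 1, 2 and 3. Treated arrays (orange) lie above all untreated arrays (blue) for each gene, and ΔC treated 3 is the lowest treated array for Rsad2 at -0.28 and for Irf7 at -0.49.

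Among sensors and signalling genes for double-stranded RNA, the RNA helicase genes rose. Of 29 tested 3 rose and none fell, with a median change of 0.35. Ifih1, which encodes MDA5, read 0.34, 0.10 and -0.20 untreated and 3.94, 3.81 and 2.47 treated, a change of 3.33 ± 0.42 (adjusted p = 0.00202). Ddx58, the gene of RIG-I, read 2.04, 1.95 and 1.87 untreated and 4.88, 4.88 and 3.55 treated, a change of 2.48 ± 0.38 (adjusted p = 0.00749). In both, the groups did not overlap and ΔC treated 3 was the lowest treated array. Dhx58, which encodes the related helicase LGP2, changed by 2.39 ± 0.47 (adjusted p = 0.0314). Tlr3, the gene of the endosomal receptor for double-stranded RNA, read -3.16, -3.22 and -3.46 untreated and -1.69, -1.68 and -3.00 treated. The change of 1.16 ± 0.63 in Tlr3 did not pass (adjusted p = 0.542). It passed without the 4 arrays numbered 3 (1.51, adjusted p = 0.00152) and with array weights (1.37, 0.0288). Irf7, the interferon-induced factor that amplifies interferon alpha expression, read -1.72, -1.97 and -2.75 untreated and 2.16, 1.80 and -0.49 treated. Its change of 3.31 ± 0.73 did not pass (adjusted p = 0.0531), but passed with the replicate number as a block (adjusted p = 0.00209), without ΔC treated 3 (0.00628) and without WT treated 3 (0.0278). With the replicate block 7 of the 29 rose, without ΔC treated 3 likewise 7, and without WT treated 3 there were 5. The calls on Ifih1 and Ddx58 were lost when slide was the block (adjusted p = 0.106 and 0.0775), as was that on Dhx58 (0.288). The call on Dhx58 was also lost when scan day was the block (adjusted p = 0.138) and without any untreated array of either genotype or ΔC treated 1 or 2 (adjusted p = 0.0513 to 0.156).

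Genes of transcription factors downstream of the interferon receptor rose, as did a brake on the receptor. Of 24 genes of the receptor, the JAK-STAT pathway and its brakes 5 rose and none fell, with a median change of 0.18. Usp18, which encodes a protease for ISG15 that also blocks signalling at the receptor, read -0.34, -1.12 and -0.95 untreated and 4.66, 4.56 and 2.77 treated. Its rise was 4.80 ± 0.50 (adjusted p = 0.000671), with the smallest treated value in experiment 3. Irf9, which encodes the DNA-binding subunit of the factor complex that type I interferon activates, read 1.79, 1.54 and 1.51 untreated and 4.15, 4.07 and 3.34 treated, a rise of 2.24 ± 0.21 (adjusted p = 0.000307). Stat2, a subunit of that complex, rose by 2.54 ± 0.46 (adjusted p = 0.0189) and Irf1, a factor induced by interferon gamma and by NF-kB, by 1.88 ± 0.31 (adjusted p = 0.0112). Irf1 differed from Usp18 and Irf9 in that its treated arrays were nearly equal, at 5.06, 5.10 and 5.06. Leaving out 1 array ended the calls on Stat2 (the 3 ΔC untreated arrays, ΔC treated 1 and 2, adjusted p = 0.0549 to 0.0945) and Irf1 (ΔC untreated 1, ΔC treated 1 and 2, 0.0506 to 0.055). Without ΔC treated 1, ΔC treated 2 or ΔC untreated 1 the count of 5 was 2, and without ΔC untreated 2 or 3 it was 3. The calls on Stat2 and Irf1 were also lost when slide or scan day was the block (adjusted p = 0.0543 to 0.169).

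Antiviral effectors induced by interferon formed the largest group of risers. Of 54 tested 21 rose in ΔC cells and none fell, with a median change of 1.88, or 1.75 with members that have only a bound set to it. Rsad2, the gene of viperin, an enzyme that makes a chain-terminating nucleotide, read -4.80, -5.64 and -5.43 untreated and 1.61, 1.27 and -0.28 treated, a rise of 6.15 ± 0.52 (adjusted p = 0.000163). Ifit1, whose product binds RNA lacking the host cap modification, read -0.65, -1.50 and -0.94 untreated and 4.85, 4.60 and 3.77 treated, a rise of 5.44 ± 0.47 (adjusted p = 0.000206). In both genes no treated array overlapped the untreated ones, and experiment 3 gave the lowest treated signal. Isg15, the gene of the ubiquitin-like protein that is linked to other proteins, read 4.27, 3.76 and 3.62 untreated and 7.80, 7.97 and 7.02 treated and rose 13.1-fold (3.71 ± 0.31 on the log2 scale, adjusted p = 0.000163). Oasl1, a relative of the oligoadenylate synthetases that lacks their activity, rose by 5.15 ± 0.41 (adjusted p = 0.000125), Ifit3b by 5.49 ± 0.53 (adjusted p = 0.000464) and Ifit3 by 4.92 ± 0.52 (adjusted p = 0.000693). Rtp4, an interferon-induced chaperone of receptors, rose by 4.79 ± 0.35 (adjusted p = 8.82e-05) and Ifi44 by 4.33 ± 0.55 (adjusted p = 0.00213). Slfn8, a Schlafen gene, was above background on no untreated array and rose at least 12.3-fold (adjusted p = 0.00206). Ifi207, a gene of the interferon-inducible p200 family, rose at least 9.27-fold by the same measure (adjusted p = 0.00475). Of the 18 risen effectors with a RefSeq promoter, 11 held an ISRE match like those of Ifit1 and Isg15 above, and so did 23 of all 46 tested. The count of 21 became 30 with the replicate block, 31 without ΔC treated 3, and 15, 14, 15 and 14 without ΔC untreated 1, ΔC untreated 2, ΔC treated 1 and ΔC treated 2. When slide was the block it was 8 and with scan day 13, and the calls on Ifi44 (adjusted p = 0.0856), Slfn8 (0.091) and Ifi207 (0.175) were lost with slide. Normexp background correction also ended the calls on Slfn8 (adjusted p = 0.157) and Ifi207 (0.214).

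Guanylate-binding proteins and immunity-related GTPases, which attack the membranes around intracellular pathogens, rose in 8 of 15 cases, with a median change of 2.60. Of the 15, 2 were well above background on no ΔC array and were tested only because WT arrays read them. Gbp5 read -4.62, -4.08 and -4.21 untreated and 2.14, 1.86 and 1.58 treated and rose by 6.16 ± 0.43 (adjusted p = 6.5e-05). Its groups were 5.66 log2 units apart at their closest and the treated arrays lay close together. Gbp3 read -0.38, -0.78 and -0.89 untreated and 4.97, 4.81 and 2.98 treated, a rise of 4.93 ± 0.55 (adjusted p = 0.000935). Gbp7 rose by 3.35 ± 0.70 (adjusted p = 0.0391) and Tgtp2, an immunity-related GTPase gene, by 3.37 ± 0.67 (adjusted p = 0.0323). The count of 8 was 5 without WT untreated 1. When slide was the block it was 3 and when scan day was the block 5, with the call on Tgtp2 lost in both (adjusted p = 0.419 and 0.169); Tgtp2 was also lost with the mean of its probes (1.99, 0.214). The count was 3 without ΔC treated 1, 2 without ΔC treated 2, 3 without ΔC untreated 2 and 4 without ΔC untreated 1 or 3. The calls on Gbp7 and Tgtp2 were lost without each ΔC untreated array and without ΔC treated 1 or 2, and also without WT untreated 1 or 3, for Tgtp2 WT untreated 2, and for Gbp7 WT treated 1 or 2 (adjusted p = 0.0515 to 0.19).

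Chemokine genes with large rises attract neutrophils, monocytes and T cells. Of 21 chemokine genes tested 8 rose and none fell, with a median change of 0.58, or 0.56 with bounds. Cxcl10, which attracts T cells and natural killer cells, read 3.28, 3.27 and 3.12 untreated and 7.98, 7.93 and 7.71 treated, a 25-fold rise (4.64 ± 0.22, adjusted p = 4.76e-06). Ccl5, another T-cell attractant, read 2.35, 2.09 and 2.72 untreated and 7.21, 7.34 and 6.44 treated and rose by 4.61 ± 0.38 (adjusted p = 0.00016). Cxcl1, which attracts neutrophils, read -0.52, -0.39 and 0.19 untreated and 5.45, 5.33 and 5.04 treated, a 45.8-fold rise (5.52 ± 0.22, adjusted p = 1.15e-06). For these 3 genes the treated arrays lay within 0.90 of each other and far above the untreated ones. Cxcl2, which also attracts neutrophils, was not well above background on any untreated array, read -1.17, -1.42 and -0.45 after poly(I:C), and was at least 33.8-fold higher (adjusted p = 2.29e-07). Ccl4, which attracts monocytes, read 1.11, 1.17 and 1.45 after poly(I:C) and was at least 162-fold higher (adjusted p = 1.28e-05). The count of 8 was 8 or 9 without any single array and 6 when slide was the block. Of the 8, 3 had a RefSeq promoter, and all 3 held an NF-kB match, against 5 of 15 chemokine genes tested.

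Of 34 cytokine and growth factor genes 7 rose and none fell, with a median change of 0.83, or 0.48 with bounds. Il6, the gene of interleukin 6, read -4.55, -4.76 and -4.79 untreated and 3.60, 3.23 and 2.90 treated, a 247-fold rise (7.95 ± 0.39, adjusted p = 4.76e-06). Its 3 untreated arrays lay within 0.24 of each other, so the rise is many times the spread in either group. Tnf read -6.81, -6.11 and -5.59 untreated, well above background on 1 array, and -2.41, -3.19 and -1.55 treated, with a fitted change of 3.79 ± 0.41 (adjusted p = 0.000792). Il15, a cytokine that sustains natural killer cells, rose by 3.22 ± 0.58 (adjusted p = 0.0197). Csf2, the gene of GM-CSF, was at least 2.19-fold higher (adjusted p = 0.000163), with no untreated array well above background. The count of 7 fell to 3, 3, 3 and 4 without ΔC untreated 1, ΔC untreated 2, ΔC treated 1 and ΔC treated 2, each of which also ended the call on Il15 (adjusted p = 0.0715 to 0.0946). The call on Csf2 was lost with normexp background correction (adjusted p = 0.0946), and that on Il15 when slide (0.27) or scan day (0.112) was the block.

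Genes of the NF-kB pathway rose in 13 of 42 cases, with a median change of 0.78 and no fall. Tnfaip3, the gene of A20, an inhibitor of NF-kB signalling, read 0.19, 0.76 and 1.09 untreated and 4.13, 4.29 and 4.18 treated, a rise of 3.52 ± 0.25 (adjusted p = 7.66e-05). Nfkbia, the gene of the inhibitor IκBα, read 4.44, 4.52 and 4.72 untreated and 5.99, 6.03 and 6.13 treated and rose by 1.49 ± 0.17 (adjusted p = 0.00112). For both inhibitors the treated arrays differed by at most 0.16, and no group overlapped the other. Among adhesion molecules, Icam1 rose by a fitted 3.77 ± 0.57 (adjusted p = 0.00676; well above background on 1 untreated array), and Sele, the gene of E-selectin, was at least 2.68-fold higher (adjusted p = 0.00159). Sele was well above background only on the ΔC treated arrays, so it entered the test only through the group where it is high. Saa3, an acute-phase protein gene, was at least 5.69-fold higher (adjusted p = 0.0364). The count of 13 was 7, 6, 6 and 6 without ΔC untreated 1, ΔC untreated 2, ΔC treated 1 and ΔC treated 2, and 2 when slide was the block, where the calls on Nfkbia (adjusted p = 0.128), Icam1 (0.164), Sele (0.0904) and Saa3 (0.352) were lost. The call on Saa3 was also lost with normexp background correction (adjusted p = 0.458), with the replicate block (0.0569) and without those 4 arrays, ΔC treated 3, WT untreated 2 or 3, or WT treated 1 (0.0532 to 0.159).

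Immediate-early transcription factors, which growth factors and stress induce within minutes through existing factors, rose in 13 of 32 cases at 6 h, with a median change of 1.26 and no fall. Egr4 read -5.26, -5.17 and -5.50 untreated and 0.94, -0.11 and -0.08 treated, a 47.2-fold rise (5.56 ± 0.33, adjusted p = 1.79e-05). Its relatives Egr2 and Egr1 rose by 3.10 ± 0.22 (adjusted p = 7.66e-05) and 2.75 ± 0.21 (adjusted p = 8.82e-05). Egr1 read 2.28, 2.03 and 2.91 untreated and 5.35, 5.16 and 4.97 treated, so the 3 EGR genes rose well beyond their spread. Atf3, a stress-induced repressor of cytokine genes, read 0.11, 0.76 and 1.46 untreated and 5.24, 5.08 and 4.89 treated and rose by 4.29 ± 0.45 (adjusted p = 0.000693). Fos, a component of AP-1, rose by 2.16 ± 0.26 (adjusted p = 0.00157). The count of 13 was 9 without ΔC untreated 1, ΔC untreated 2 or ΔC treated 1 and 10 without ΔC treated 2, but 19 without ΔC untreated 3 and 3 when slide was the block, where Atf3 (adjusted p = 0.117) and Fos (0.134) lost their calls. None of the 24 tested members with a RefSeq promoter held the NF-kB motif, and 2 held the ISRE motif.

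Some feedback genes that shorten such responses rose. Of 23 genes of MAP kinase feedback and AU-rich mRNA decay 4 rose and none fell, with a median change of 0.66. Zfp36, whose product directs cytokine mRNAs to decay, read -3.39, -2.61 and -2.62 untreated and -0.28, -0.38 and 0.10 treated, a rise of 2.69 ± 0.22 (adjusted p = 0.000163). Zc3h12a, the gene of the ribonuclease Regnase-1 that cleaves Il6 mRNA, read -2.95, -2.70 and -2.60 untreated and -1.29, -1.04 and -1.25 treated, a rise of 1.56 ± 0.16 (adjusted p = 0.000671). Neither gene's groups overlapped. Dusp1, a phosphatase of MAP kinases, rose by 1.48 ± 0.19 (adjusted p = 0.00269), and Errfi1, an inhibitor of the EGF receptor, by 1.33 ± 0.28 (adjusted p = 0.0404). When slide was the block the call on Dusp1 was lost (adjusted p = 0.115). The call on Errfi1 was lost with the replicate block (adjusted p = 0.0706), when slide or scan day was the block (0.538 and 0.324), and without any ΔC poly(I:C) or WT untreated array, ΔC untreated 1 or 2, or WT treated 2 (0.0545 to 0.194).

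The machinery around eIF2α, on which GADD34 acts, was listed as 19 genes of kinases, phosphatase subunits and exchange factor subunits, Ppp1r15a among them. In limma's test 0 of the 19 rose or fell, while 1.82% of all genes tested rose and 0.0194% fell. A list this short can hold 0 calls at those shares. At an unadjusted p under 0.05 in limma 2 of the 19 rose, as did 1047 of all 15445 genes tested. The median change of the list was 0.00. Eif2ak2, the gene of PKR, read 1.84, 1.71 and 1.17 untreated and 3.42, 3.21 and 1.70 treated. The groups overlapped, because ΔC treated 3 lay within the untreated range, and the change of 1.20 ± 0.45 did not pass (adjusted p = 0.366); it passed once ΔC treated 3 was left out (0.0329). Ppp1r15b, the constitutive partner of GADD34, read 0.06, 0.06 and 0.31 untreated and 0.63, 0.56 and 0.40 treated, a change of 0.39 ± 0.15 that did not pass (adjusted p = 0.376). It passed with array weights (adjusted p = 0.0137) and without the 4 arrays numbered 3 (0.0403). Downstream of eIF2α, 3 of 46 targets of the transcription factors ATF4 and CHOP rose and none fell, with a median change of 0.25. These were Atf3, described above, Chac1, whose product degrades glutathione (2.20 ± 0.43, adjusted p = 0.0296), and Herpud1, a gene of endoplasmic reticulum protein degradation (1.13 ± 0.23, adjusted p = 0.0379). Chac1 read 2.46, 3.33 and 4.18 untreated and 5.57, 5.77 and 5.23 treated, with untreated values spread over 1.72. Atf4 itself changed by 0.45 ± 0.12 (adjusted p = 0.109). It passed with array weights (adjusted p = 0.00398), without the 4 arrays numbered 3 (0.0159) and with a trended prior (0.0276). Ddit3, the gene of CHOP, changed by 1.08 ± 0.24 (adjusted p = 0.0533, and 0.0104 without ΔC untreated 3 and 0.0399 without WT treated 3). Hspa5, the main chaperone of the endoplasmic reticulum, read 6.71, 6.74 and 6.71 untreated and 6.71, 6.81 and 6.53 treated, and 0 of 26 chaperone and quality control genes rose or fell (limma; 0 and 2 at an unadjusted p under 0.05). The count of 3 was 6 without ΔC untreated 3 and 5 without WT treated 3. With the replicate block the calls on Chac1 (adjusted p = 0.0518) and Herpud1 (0.0727) were lost and 1 of 46 rose. Both calls were lost when slide was the block (adjusted p = 0.507 and 0.527), as was that on Atf3 (0.117), and when scan day was the block both were lost (0.26 and 0.288) and 1 rose. Chac1 and Herpud1 were also lost without ΔC untreated 1 or 2, ΔC treated 1 or 2, WT untreated 1 or WT treated 1 (adjusted p = 0.0502 to 0.165), and Herpud1 without WT untreated 2 or 3 or WT treated 2 as well.

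Genes of antigen presentation and cell death were set beside the 1.82% of all genes tested that rose. Of 21 genes of MHC class I, peptide loading and the immunoproteasome 1 rose, Cd274, the gene of the checkpoint ligand PD-L1. It read -3.22, -3.12 and -2.84 untreated and 0.76, 0.38 and -1.23 treated, a rise of 3.03 ± 0.54 (adjusted p = 0.0177). The median of the 21 was 0.35. Every treated array lay above every untreated one for 8 of the 21, as for 8.79% of all genes tested. Without the 4 arrays numbered 3, 8 of the 21 rose, when 1007 of all genes tested did. Of 32 cell death regulators 0 rose or fell (limma; 4 and 0 at an unadjusted p under 0.05). Among them Tnfsf10, the gene of the death ligand TRAIL, was not well above background on any untreated array and on 2 treated ones (adjusted p = 0.46). It passed without ΔC treated 3 (adjusted p = 0.0454) and without the 4 arrays numbered 3 (0.00326). Its treated values of -4.41, -4.78 and -8.28 put ΔC treated 3 at the untreated level. Casp4, an inflammatory caspase gene, changed by 1.86 ± 0.75 (adjusted p = 0.417, and 0.0428 with the replicate block). Without ΔC treated 3 and with the replicate block 2 of the 32 rose, and without the 4 arrays numbered 3 there were 8. The call on Cd274 depended on ΔC untreated 1 and 2 and ΔC treated 1 and 2, each of which ended it when left out (adjusted p = 0.0782 to 0.0862) and when slide (0.226) or scan day (0.0897) was the block.

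Counts for housekeeping and fibroblast programs are read against all genes tested, of which 1.82% rose and 0.0194% fell. Lists of this size can hold 0 calls at those shares. Of 58 ribosomal protein genes 0 rose or fell, with changes of -0.03 to 0.19, and of 44 cell cycle and DNA replication genes 0 did, with changes of -0.39 to 0.23 (limma; 0 in either list at an unadjusted p under 0.05). The 33 collagen and matrix genes and 19 cytosolic heat shock genes likewise had 0 calls (0 in either at an unadjusted p under 0.05), with medians of -0.12 and 0.00. Among 30 glycolysis and hypoxia genes (3 and 1), 24 matrix proteases and inhibitors (2 and 1), 22 oxidative stress genes (2 and 0), 17 contractile genes (0 and 1) and 12 prostaglandin genes (2 and 0), none passed limma's test, and the counts in parentheses rose and fell at an unadjusted p under 0.05. Without the 4 arrays numbered 3 there were 4 rises among the glycolysis and hypoxia genes and 3 among the matrix proteases and inhibitors. The oxidative stress and contractile genes then had 2 each and the prostaglandin genes 1, with 1007 rises among all genes tested. Of 32 cholesterol synthesis genes 1 rose, Ch25h, an interferon-induced enzyme that makes an oxysterol (2.53 ± 0.52, adjusted p = 0.038), and none fell. At an unadjusted p under 0.05 in limma, 4 of the 32 fell, as did 635 of all 15445 genes tested. Every treated array lay below every untreated one for 10 of the 32, as for 8.91% of all genes tested. The median of that list was -0.34. Of 22 p53 targets 1 rose, Btg2, an antiproliferative gene that is also an immediate-early gene (1.40 ± 0.19, adjusted p = 0.0029), and of 22 genes of TGF-beta and Wnt feedback 1 rose, Tgif1, a repressor of TGF-beta signalling (1.20 ± 0.18, adjusted p = 0.00598). Of 7 hosts of small nucleolar RNAs and related transcripts 3 rose: Snhg1 (1.14 ± 0.22, adjusted p = 0.0305), Snhg12 (1.01 ± 0.21, adjusted p = 0.0375) and Snhg5 (0.92 ± 0.19, adjusted p = 0.0417). When slide or scan day was the block the calls on Ch25h, Tgif1 and the Snhg genes were lost (adjusted p = 0.102 to 0.636), those on the Snhg genes also with the replicate block (0.0522 to 0.0652) and on scaling arrays to their medians (0.183 to 0.256), that on Ch25h with normexp background correction (0.138), and that on Btg2 with slide (0.0803). Without WT untreated 3 and ΔC treated 3 the p53 count was 3 and 2, and without ΔC untreated 3 there were 2 rises among the TGF-beta and Wnt genes and 1 among the prostaglandin genes. Leaving out ΔC untreated 1, ΔC untreated 2, ΔC treated 1 or ΔC treated 2 ended the calls on Ch25h and the 3 Snhg genes, as did, for some of them, ΔC untreated 3, ΔC treated 3 and single WT arrays (adjusted p = 0.0508 to 0.193).

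**Figure D3:**
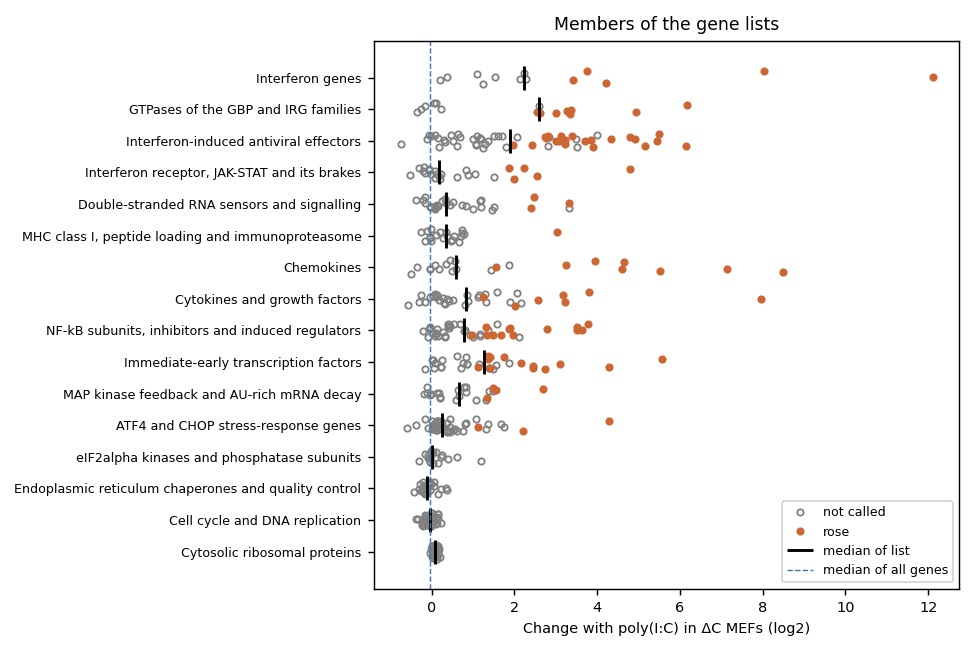
Change with poly(I:C) in ΔC MEFs (log2, horizontal axis) of the tested members of 16 gene lists, 1 point a gene; filled points rose, open points did not pass the test, black bars are list medians and the dashed line is the median of all genes (-0.05). Medians run from 2.60 for GBP and IRG genes and 2.24 for interferon genes to -0.12 for endoplasmic reticulum chaperones.

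Beyond these lists, several genes with little signal in untreated ΔC cells rose. Nr1h5, which encodes a nuclear receptor for sterols in the mouse, was not well above background on any untreated array and read -1.31, -1.31 and -4.28 treated, at least 13.8-fold higher (adjusted p = 0.00209), with ΔC treated 3 2.97 log2 units below the other treated arrays. Fcgr1, the gene of a high-affinity receptor for IgG, was at least 14.5-fold higher (adjusted p = 0.00505), Cd52, a surface glycoprotein gene, at least 10.3-fold (adjusted p = 0.00219), and Celf3, an RNA-binding protein gene, at least 10.8-fold (adjusted p = 0.000553). Ankrd33b read -2.41, -2.71 and -2.98 treated and was at least 10.5-fold higher (adjusted p = 0.000303). Cyp26a1, an enzyme that degrades retinoic acid, read -4.96, -5.82 and -5.78 untreated and -0.35, -0.75 and -2.60 treated, a rise of 4.29 ± 0.70 (adjusted p = 0.0101). Ovol1 and Pramel39, each well above background on 1 untreated array, rose by a fitted 4.22 ± 0.72 (adjusted p = 0.0142) and 4.25 ± 0.86 (adjusted p = 0.0354). Fcgr1 and Cd52 are also genes of leukocytes, whose markers are given above; their part in these rises was not tested. When slide was the block the calls on Nr1h5 (adjusted p = 0.0759), Fcgr1 (0.112), Cyp26a1 (0.0829) and Pramel39 (0.302) were lost, and with scan day those on Ovol1 (0.0681) and Pramel39 (0.165). Leaving out 1 array ended the calls on Cyp26a1 (ΔC untreated 2, ΔC treated 1 or 2), Ovol1 (ΔC untreated 1 or 2, ΔC treated 1) and Pramel39 (ΔC untreated 1 or 3, ΔC treated 1 or 2, WT untreated 2, WT treated 1 or 2), with adjusted p = 0.052 to 0.165.

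The 3 genes that fell did so modestly. Gucy1b1, a subunit of the nitric oxide receptor guanylate cyclase, read -4.42, -4.65 and -4.99 untreated and -7.41, -6.06 and -5.75 treated, a change of -1.72 ± 0.35 (adjusted p = 0.0364), with 1 of 3 treated arrays well above background. Celf5, an RNA-binding protein gene, read -0.95, -0.82 and -1.46 untreated and -2.20, -2.01 and -1.71 treated, a change of -0.89 ± 0.19 (adjusted p = 0.0384). Ccdc160 was well above background on no treated array and was at least 1.16-fold lower (adjusted p = 0.044). Each of these calls was lost on leaving out ΔC untreated 1, ΔC untreated 2 or ΔC treated 2, and any of 5 to 7 other single arrays (adjusted p = 0.0559 to 0.201, a count over all 12 arrays of 8 for Gucy1b1, 9 for Celf5 and 10 for Ccdc160). With the replicate block Gucy1b1 (adjusted p = 0.0544) and Celf5 (0.0777) did not pass. None of the 3 passed when slide was the block (adjusted p = 0.119 to 0.256), nor on the ΔC arrays alone (0.157 to 0.237), and normexp background correction shrank the change of Gucy1b1 to -0.26 (0.46) and that of Ccdc160 to -0.13 (0.712). With the mean of its probes Celf5 changed by -0.53 (adjusted p = 0.555).

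The size of the response varied between pairs of ΔC arrays with the same number, called experiments here. When each ΔC poly(I:C) array was set against the ΔC untreated array of the same number, the 281 genes had medians of 2.78, 2.56 and 1.66 in experiments 1, 2 and 3. All 281 were higher in each of the 3, which was fixed in advance because their groups did not overlap. Of all 15445 genes tested, 2875 were higher in all 3. For 229 of the 281 (81.5%) experiment 3 gave the smallest change, as it did for 35.2% of all genes. The antiviral effectors showed it most, with medians of 2.58, 2.12 and 1.08 and the smallest change in experiment 3 for 45 of 54. The interferon genes, at 2.53, 1.93 and 2.14, and the chemokines, at 1.17, 0.45 and 0.95, did not follow it, and experiment 3 was smallest for 6 of 13 and 7 of 21 of them. In WT cells the same 281 genes had medians of 2.66, 2.48 and 1.92, with the smallest change in experiment 3 for 222. Because the 281 were chosen by their calls in ΔC cells, these medians do not compare the size of the responses. Over the whole lists the WT medians were 5.09, 4.83 and 3.67 for the effectors, 4.71, 4.91 and 1.93 for the interferon genes and 1.88, 1.77 and 0.54 for the chemokines. In WT cells experiment 3 was smallest for 47 of 54, 12 of 13 and 13 of 21 of them. The ΔC arrays of experiment 1 shared a slide and a scan day, while those of experiment 2 and those of experiment 3 each lay on different slides and scan days; the part of slide and scan day in this pattern was not tested. Within the slide that held ΔC untreated 1 and ΔC treated 1, the effectors had a median of 2.58, the same value as experiment 1 above, from 1 array per group. Within the scan day that held these 2 and ΔC untreated 2, their median was 2.66. All 281 genes were higher with poly(I:C) in both, which was again fixed in advance and so tells nothing about slide or scan day. The 281 were called partly on these same arrays.

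**Figure D4:**
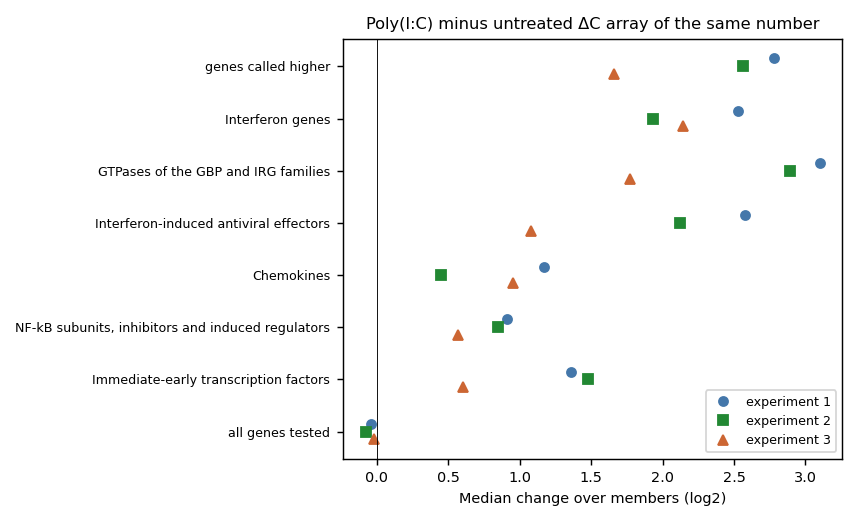
Median change over list members (log2, horizontal axis) between the ΔC poly(I:C) and ΔC untreated arrays of the same number, for experiments 1 (circles), 2 (squares) and 3 (triangles). Experiment 3 lies lowest for the antiviral effectors (1.08) and the immediate-early factors (0.60), and between the others for the interferon genes (2.14) and the chemokines (0.95).

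The ΔC response was compared with the WT response by testing the difference of the 2 changes. In WT cells poly(I:C) raised 809 genes (5.24%) and lowered 237 (1.53%), and 242 genes rose in both genotypes, 86.1% of the ΔC risers and 29.9% of the WT risers. Of the 281, 39 were not called in WT cells, and for none of those 39 did the difference itself pass. The difference passed for 3 genes: 1 with a larger change in ΔC cells (0.00647% of genes) and 2 with a smaller one (0.0129%), Gbp2b being named after its values were seen. Cxcl1 rose by 5.52 in ΔC and 2.39 in WT cells, a difference of 3.13 ± 0.31 (SE, adjusted p = 0.0176). Its WT arrays read 3.66, 3.81 and 3.21 untreated and 6.02, 6.04 and 5.78 treated, so that the genotypes lay further apart before poly(I:C) than after it. Fbxo15, an F-box gene of embryonic stem cells, changed by 0.33 ± 0.20 in ΔC cells, where it read -4.64, -5.03 and -4.97 untreated and -4.72, -4.62 and -4.29 treated, and by 2.94 in WT cells (difference -2.61 ± 0.28, adjusted p = 0.018). Gbp2b, a guanylate-binding protein gene, was well above background on no ΔC array and rose by 6.88 in WT cells (difference -7.24 ± 0.89, adjusted p = 0.0483). The difference for Cxcl1 was lost when slide (adjusted p = 0.201) or scan day (0.122) was the block and on the authors' table without its mismatched column (0.0599). It was also lost without WT treated 1 or 2, ΔC untreated 1 or 2 or ΔC treated 1 or 2 (0.0532 to 0.0937), and that for Fbxo15 was lost when slide (0.346) or scan day (0.241) was the block, on the authors' table (0.203) and without these arrays, WT untreated 3 or ΔC untreated 3 (0.0616 to 0.105). Leaving out any of these 8 arrays left 0 genes with a smaller change in limma's test, so that Gbp2b did not pass either (370 to 615 genes at an unadjusted p under 0.05).

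How many differences passed depended on the fit and on single arrays, above all WT treated 3. With the replicate number as a block, 4 genes had a larger and 37 a smaller change in ΔC cells. Among the 37 were 11 of 54 antiviral effectors, 5 of 21 genes of MHC class I and the immunoproteasome and 3 of 15 GBP and IRG genes, and of the 13 interferon genes none. Without WT treated 3 the counts were 10 and 200, with 30 of the effectors and 10 of the interferon genes among the 200. Without ΔC treated 3 they were 2 and 3, without ΔC untreated 3 they were 1 and 0, and without WT untreated 3 they were 2 and 0. Without all 4 arrays numbered 3 they were 94 and 360, with 35 effectors, 18 of 21 MHC class I and immunoproteasome genes, 11 GBP and IRG genes and 10 interferon genes among the 360, and among the 94 Cxcl1, Cxcl2 and Sele. In the test over all arrays, the difference for Rsad2 was -4.67 (adjusted p = 0.184), not past the threshold. Ifnb1 (-1.70, adjusted p = 0.987), Tnfaip3 (-0.30, adjusted p = 0.987) and Egr1 (0.37, adjusted p = 0.987) did not pass either, which does not show that the genotypes respond alike.

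**Figure D5:**
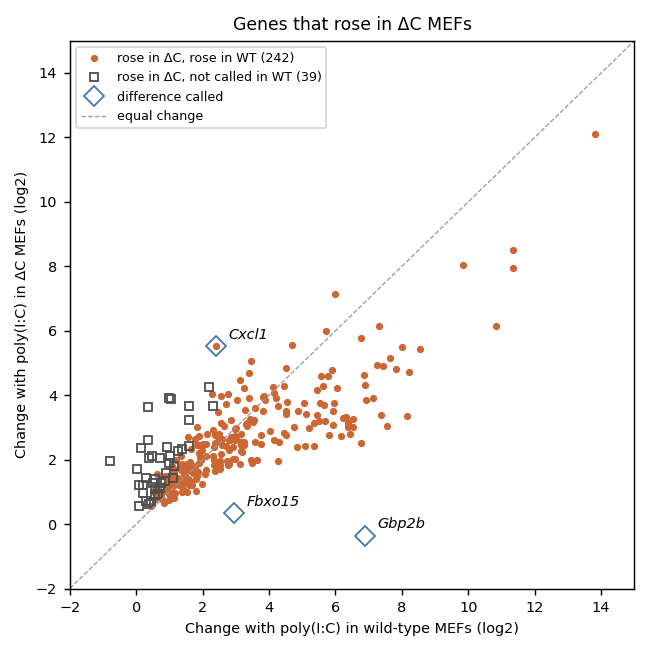
Change with poly(I:C) in ΔC MEFs (log2, vertical axis) against that in WT MEFs (log2, horizontal axis) for the 281 genes that rose in ΔC cells, split into 242 that also rose in WT cells (filled) and 39 not called there (open squares); blue diamonds mark the 3 genes whose difference passed and the dashed line marks equal change. Cxcl1 lies above the line at 5.52 against 2.39, and Fbxo15 (0.33 against 2.94) and Gbp2b (-0.36 against 6.88) lie below it.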

How the data were processed

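RNA of 12 MEF cultures, 3 in each of 4 groups, was hybridised to Agilent single-colour arrays. Per the file headers, the authors' scanner files were made with Feature Extraction 10.7.3.1, and the deposited intensity used here is its processed, background-subtracted signal, with limma named without a version in the submitters' processing notes. The authors' deposited table holds log2 values and served only as an alternative without its column of ΔC treated 1; how it was normalised is not given in the sources used here. Probes named by position carry mm9 coordinates per the file headers.

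Control spots and outlier flags were left out, log2 signals were scaled to each array's 75th percentile, and replicate spots were averaged. Of 55681 probes 27235 were named through accessions in RefSeq's gene table and 28446 were not. Probes entered the test if all 3 arrays of at least 1 group read them well above background, and where a gene had several probes (3993 genes) the brightest tested on average was kept. Limma 3.58.1 in R 4.3.3 was fitted to all 12 arrays with 1 mean per group. The fit was also tried on values simulated with independent errors, which leave out any shared deviation of same-numbered arrays. Precision is limited by the number of arrays, and the p-values measure the spread between these arrays. Same-numbered arrays deviated together (r = 0.321, 0.593 and 0.651 for numbers 1, 2 and 3), so the replicate number was also fitted as a block, as the labels describe independent experiments.

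The members, the 33 gene lists and the tests were chosen with earlier results of these data known. Named genes were the 20 largest rises that were measured in both groups, all falls, the 10 largest bounds, up to 4 called rises of each list or its 2 largest changes where none was called, and fixed genes, with some left out for length. Alternatives were other scalings, background corrections, filters and probe summaries, replicate, slide or scan day as a block, the ΔC arrays alone, array weights, a trended prior, the authors' table and each array left out.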

Additional observations from a re-analysis of the deposited data

Results flagged for a closer look

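The difference between the ΔC and WT responses, tested as an interaction in limma, passed for Cxcl1 (3.13 on the log2 scale, larger in ΔC cells), for Fbxo15 (-2.61) and for Gbp2b (-7.24, with no ΔC array well above background). Each of these sits among 15445 genes tested. The difference for Fbxo15 was also lost with quantile normalisation (adjusted p = 0.163), with arrays scaled to their medians (0.0694) and with a trended prior (0.0612); its other losses and those for Cxcl1 are given in the report.

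Probes without a gene name were outside the comparison, and some of them rose with poly(I:C) in ΔC cells in the same fit over all probes. Of 8040 probes named by genome position 116 rose (1.44%) and 6 fell. Of 1801 probes of Ensembl transcripts 34 rose (1.89%), and of 4459 probes of other accessions 63 rose (1.41%), against 325 of 20230 probes of named genes (1.61%).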

How the results depend on the processing

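All 281 rises kept their sign in all 25 alternatives, but their number moved. Where an alternative only left out or weighted arrays or changed the prior, the sign was fixed in advance, because the ΔC groups did not overlap. The count of rises was 84 when slide was the block, 144 for scan day, 180 with only the ΔC groups, 156 with the authors' table, 1256 with array weights and 1007 without the 4 arrays numbered 3. The count of falls was 7 with quantile normalisation, 5 with normexp, 1 with no filter, 0 when slide was the block (limma; 148 at an unadjusted p under 0.05), 1 with scan day, 0 with only the ΔC groups (682 unadjusted), 1414 with array weights and 1022 without the arrays numbered 3. With each array left out in turn, rises numbered 154 to 345 and falls 0 to 32. The replicate block gave 309 rises, 250 of them among the 281, and 4 falls. Genes with a larger change in ΔC than WT cells numbered 4 with the replicate block, 2 with normexp or no filter, 196 with array weights, 94 without the arrays numbered 3, and 0 with slide, scan day or the authors' table (582, 460 and 294 unadjusted). Genes with a smaller change numbered 37, 9 with normexp, 1 with no filter or median scaling, 498 with array weights, 360 without the arrays numbered 3, and 0 with slide, scan day or the authors' table (417, 422 and 589 unadjusted). With an array left out they numbered 0 to 10 and 0 to 200. Scaling to the median moved the median of all genes from -0.05 to -0.19. Hspa5 (-0.04 ± 0.12), Ppp1r15a (0.60 ± 0.91) and Gbp2b (-0.36 ± 0.63) had changes within their SE, and their sign was not kept throughout. The change of Hspa5 was 0.00 when scan day was the block and with array weights. It was 0.04 without the arrays numbered 3 and without ΔC treated 3. That of Ppp1r15a was -0.88 with the authors' table, 0.00 without ΔC untreated 2 and -0.58 without ΔC treated 1. For Gbp2b it was 0.02 with normexp and without ΔC treated 2. With single arrays left out these ranged from -0.10 to 0.04 for Hspa5, from -0.58 to 1.43 for Ppp1r15a and from -0.79 to 0.02 for Gbp2b. Of 2025 single-gene values (81 genes in 25 alternatives) 1694 kept direction and call, 293 lost the call and 29 gained it. The cause of these changes was not tested. Probes near background limit the fitted size of the largest rises.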

Other observations

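The families below were chosen after their values were seen and no test was made on them. Of 63 histone genes tested 14 rose in ΔC cells and none fell, with a median change of 0.40 over the family. H1f3, a linker histone gene, changed by a fitted 3.90 ± 0.40 (adjusted p = 0.000666; well above background on 1 untreated array), H2bc23 by 2.95 ± 0.34 and H2ac6 by 2.74 ± 0.44. All 3 genes of the CYP26 family, which break down retinoic acid, rose: Cyp26a1, Cyp26b1 (2.62 ± 0.51) and Cyp26c1, which was at least 1.74-fold higher. Of 8 apolipoprotein L genes 5 rose, among them Apol9b (3.52 ± 0.42), Apol9a (3.43 ± 0.43) and Apol7c, which was at least 7.39-fold higher. The bounds are given because no untreated ΔC array read Cyp26c1 or Apol7c well above background. Probes of the apolipoprotein L genes may not tell near-copies apart, which was not tested. Of 10 Snhg genes, hosts of small nucleolar RNAs, 5 rose, Snhg17 (1.27 ± 0.22) and Snhg16 (1.22 ± 0.18) being the ones not described in the report.

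Among the probes named by position (mm9), the largest rise was at chr2:128249388-128250301. It read -5.35, -4.75 and -5.12 on the untreated ΔC arrays and 2.13, 2.44 and -1.08 after poly(I:C), a change of 6.24 ± 0.78 (SE, limma adjusted p = 0.0021), and ΔC treated 3 was again the lowest treated array.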
